A study of Homo sapiens with 2 samples.

Results

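The genes of macroautophagy were examined in RNA from HEK293 cells, a human embryonic kidney line, of the WT and PERK-KO genotypes. PERK (gene EIF2AK3) is a kinase of the endoplasmic reticulum membrane and one arm of the unfolded protein response. Both genotypes were cultured for 12 h in OXPHOS medium, which per the methods of the study lacked glucose and held 10 mM galactose and 1 mM sodium pyruvate, so the medium was shared and the labels name only the genotype as different. There was 1 sample of each genotype, so no difference could be tested against replicates, and no medium with glucose was among the samples. The PERK-KO cells were made with CRISPR/Cas9 and derived from single cells, and the labels do not say which clone or which of the guides the sequenced sample was. The autophagy genes were taken by symbol from a list of 41, of which 40 were found in both tables of 25277 rows. ATG101 was the symbol not found, and its older symbol C12orf44 was. Expression was given as FPKM, the number of fragments per length of transcript and per number of mapped reads, which makes levels comparable between genes, with a lower and an upper confidence limit. Values given as a pair below are FPKM, first in WT and then in PERK-KO cells, with the limits in parentheses, and log2 differences are PERK-KO over WT.

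Macroautophagy wraps cytoplasm, proteins or whole organelles in a growing double membrane and delivers them to the lysosome. A kinase complex around ULK1 starts the process, a lipid kinase complex around PIK3C3 marks the membrane with PI3P, and an enzyme chain that resembles ubiquitination couples the small ATG8 proteins to the membrane lipid. Receptors such as SQSTM1 then tie cargo to the ATG8 proteins. Under endoplasmic reticulum stress, PERK signals through eIF2α to the transcription factors ATF4 and CHOP, which are known to raise the transcription of many of these genes, while TFEB and TFE3 do so when nutrients are short. The data therefore address whether mRNA levels of the autophagy genes differed between cells with and without PERK in a medium that makes cells depend on mitochondria.

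The targeted gene EIF2AK3 was at 5.61 (5.11 to 6.12) in WT and 3.89 (3.44 to 4.34) in PERK-KO cells (log2 difference -0.53, and -0.73 against genes of the same transcript length). Its mRNA was thus lower in PERK-KO cells but still present, and since a small edit can leave an mRNA in place, its level does not by itself check the knockout. Per the methods of the study, the clones were examined by immunoblotting, and protein is not part of the data used here. Of 7 markers of HEK293 cells, 4 reached an FPKM of 1 in each of the samples. IRS4, an adaptor protein that HEK293 cells are known to make in quantity, stood at 0.121 in WT and 27.1 in PERK-KO cells, and the library labelled WT thus lacked nearly all of a defining marker of the line. NEFM, a neurofilament gene of the same list, stood at 0.662 and 5.21. Of 10 markers of other cell types, 6 were at 0 in both samples and 3 reached an FPKM of 1. These were COL1A1, the highest at 4.97 and 4.62, ADIPOQ at 1.68 and 1.42, and PECAM1 at 1.35 and 1.36. With 1 sample per genotype, differences between sublines of HEK293 cells, between cultures and between genotypes cannot be told apart for any gene below. In RNA of a whole culture, a lower level in every cell and a lower level in some of the cells cannot be told apart either.

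Of the 40 genes, 39 reached an FPKM of 1 in either sample, as did 14594 genes in all. MAP1LC3A was the gene below that level. The 39 genes spanned FPKM values from 2.29 (ATG2B) to 283.5 (GABARAP) in WT cells, 18 of them were at 20 or more in both samples, and the order of the genes was nearly the same in both (Spearman's rho 0.95 over 39 genes, a description across genes). The confidence limits corresponded to 79.4 to 3922 fragments per gene in WT cells (median 746) and to 56.0 to 2841 in PERK-KO cells (median 638). These numbers take the limits as counting error alone, which does not hold for every gene. The HEK293 marker KRT8, at 640 FPKM and 1784 bases, gave 2260 in WT cells, whereas the marker VIM, at 418 FPKM and 2154 bases, gave 15863. The limits come from 1 library each, so how much cultures vary is unknown.

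**Figure D1:**
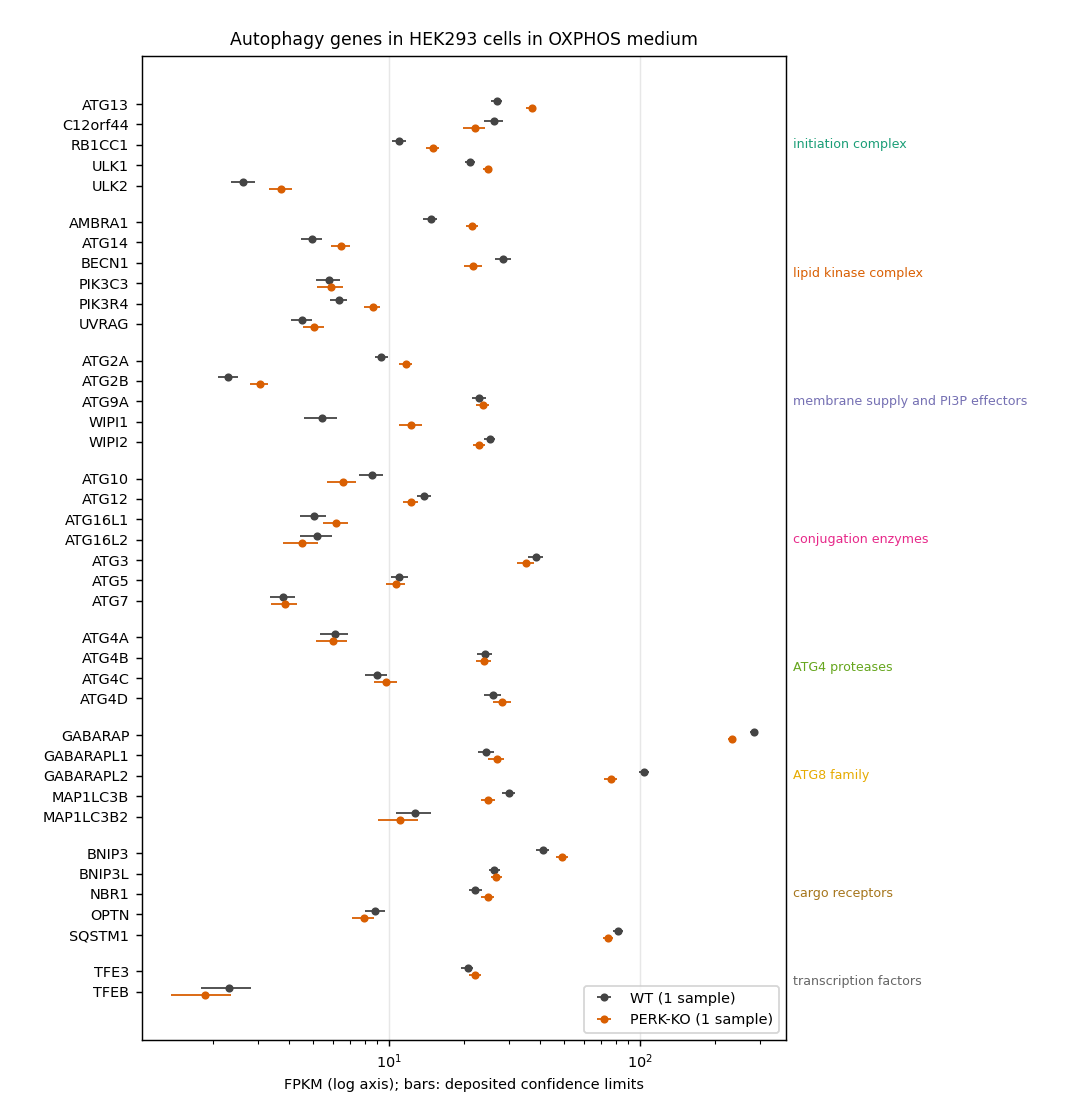
FPKM (log axis) of the 39 autophagy genes that reached an FPKM of 1 in either sample, in WT cells (grey, 1 sample) and PERK-KO cells (orange, 1 sample), grouped by role, with bars for the deposited confidence limits. GABARAP stands highest in both samples, and the points of a gene lie close together except for WIPI1, which moves from 5.41 to 12.2.

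Most autophagy genes differed little between the genotypes. The threshold of the study corresponds to a log2 difference of 0.58 in either direction. Of the 39 genes, 1 was higher by more than this in PERK-KO cells, WIPI1, against 10.5% of all genes tested. No autophagy gene was lower by more than the threshold (0 of 39), against 7.83% of all genes tested. Thus 38 of 39 genes (97.4%) stayed within it, compared with 81.7% of all genes. The median log2 difference was 0.03 over the 39 genes and 0.04 over all genes, with quartiles of -0.16 and 0.28 for the autophagy genes and of -0.23 and 0.31 for all genes.

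A finer reading is whether the confidence limits of the 2 samples overlapped. They did in 22 of the 39 genes, stood apart with the higher value in PERK-KO cells in 11 (28.2%) and stood apart with the lower value in 6 (15.4%). Among all genes tested the shares were 26.1% and 18.7%, so neither share of the autophagy genes was far from the background. When each gene was set against the running median of the genes nearest to it in transcript length, the split was 7 higher and 6 lower. By role, limits stood apart with the higher value in PERK-KO cells in 10 of 16 genes from initiation to membrane supply. In 1 of the 16, BECN1, they stood apart with the lower value. Of 12 genes of the conjugation enzymes and the ATG8 family, 4 were lower with limits apart and 0 higher. These groups join several of the roles below and were not set beforehand. Against genes of the same length, limits stood apart higher in 5 of the 16 and lower in 2. In the 12 they then stood apart higher in 1 and lower in 3, a description without a test. The share of all genes under this comparison is not given here. Counts of limits apart against genes of the same length, here and below, thus stand without a background.

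WIPI1 showed the largest difference of the autophagy genes. It encodes a propeller-shaped protein that binds PI3P on the early autophagosomal membrane and is widely used as a marker of autophagosome formation. Its level was 5.41 in WT (limits 4.61 to 6.21, about 182 fragments) and 12.2 in PERK-KO cells (limits 10.9 to 13.5, about 370 fragments). This is a 2.26-fold higher level in PERK-KO cells, or 1.18 on the log2 scale (95% interval from the limits 0.92 to 1.43). It lies above the difference of 97.5% of all genes. The gene lies on the minus strand of chromosome 17 (66417422 to 66453653 in hg19), and the microRNA gene MIR635 lies within its span. Its canonical transcript of 1908 bases shares no run of 50 bases with that of its paralog WIPI2. WIPI2, which binds the same lipid and recruits ATG16L1, was at 25.2 and 22.9 with overlapping limits, a log2 difference of -0.14. WIPI2 became lower with limits apart when the samples were rescaled to an equal median, and against genes of the same length (-0.30).

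The 250 bases before the annotated start of WIPI1 are shown because this is the only autophagy gene past the threshold (RefSeq, GRCh38.p14, chr17:68457497-68457746, minus strand, 5′ to 3′). Capitals mark the GC box GGGGCGGGG, a motif chosen after the sequence had been seen and searched on both strands.

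WIPI1: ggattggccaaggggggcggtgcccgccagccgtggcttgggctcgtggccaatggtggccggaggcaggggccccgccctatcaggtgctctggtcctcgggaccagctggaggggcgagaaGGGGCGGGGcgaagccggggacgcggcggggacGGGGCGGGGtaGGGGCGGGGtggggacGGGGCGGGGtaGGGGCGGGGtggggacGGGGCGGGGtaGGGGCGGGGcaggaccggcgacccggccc

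The stretch was 79.6% G or C and held 7 matches to the GC box, several of them in a short tandem repeat. The same letters occurred in 15.7% of 35116 RefSeq promoters of 300 bases. A match is a description of the letters and not of a bound site.

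In the initiation complex, 4 of 5 genes were higher in PERK-KO cells with limits apart, and none passed the threshold. The share higher with limits apart was 26.1% of all genes tested and 30.1% of those at an FPKM of 5 or more in either sample. ATG13, the adaptor that links the kinase to its partners, was at 26.9 (25.6 to 28.2) and 37.02 (35.3 to 38.7), a log2 difference of 0.46. RB1CC1, the large scaffold also called FIP200, was at 10.99 and 14.9, a log2 difference of 0.44. Scaffold and adaptor mRNAs thus differed by a similar amount, but by 0.19 and 0.35 against genes of the same length. ULK2, a kinase related to ULK1, was at a low level of 2.63 (2.35 to 2.91) and 3.73 (3.34 to 4.13), a log2 difference of 0.50 (0.29 to 0.72) and the third largest positive difference among the autophagy genes. The kinase gene ULK1 itself was at 21.0 and 24.7, with a smaller log2 difference of 0.23. C12orf44 (ATG101), which stabilises ATG13, was at 26.1 and 21.9 with overlapping limits. Against genes of the same length, ULK1 (0.05) and ULK2 (0.20) had overlapping limits, so that 2 of 5 genes were higher with limits apart. C12orf44 became lower with limits apart when the samples were rescaled to an equal median.

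The lipid kinase complex was mixed. AMBRA1, a large regulator that binds Beclin 1, was at 14.7 (13.7 to 15.6) and 21.5 (20.3 to 22.6), a log2 difference of 0.55 (0.43 to 0.67). At 1.47-fold it was the second largest positive difference and lay just inside the threshold. PIK3R4, the regulatory subunit also known as VPS15, was at 6.32 and 8.61, a log2 difference of 0.45 with limits apart. ATG14, the subunit that directs the complex to the site of autophagosome formation, was at 4.92 and 6.44, a log2 difference of 0.39 with limits apart. These 3 subunits or regulators were higher, although the limits of ATG14 overlapped against genes of the same length (0.21), and the catalytic subunit PIK3C3 was level at 5.76 and 5.86. UVRAG, the subunit of the endosomal form of the complex, was at 4.51 and 5.02 with overlapping limits.

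BECN1, the gene of Beclin 1, was the exception within this complex. It was at 28.5 (26.4 to 30.6) and 21.7 (19.8 to 23.5), a log2 difference of -0.39 (-0.55 to -0.24) and the second largest negative difference among the autophagy genes. Its span overlaps that of CNTD1 in the tables, and whether strand was used in assigning reads is not given in the sources used here. Beclin 1 and its binding partners AMBRA1 and ATG14 hence differed in opposite directions at the mRNA level.

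Among the genes that bring lipid to the growing membrane, ATG2A and ATG2B encode lipid transfer proteins and ATG9A a transmembrane lipid scramblase. ATG2A was at 9.32 and 11.7, a log2 difference of 0.32 with limits apart. ATG2B, the longest transcript of the set at 13162 bases, was at 2.29 and 3.06, a log2 difference of 0.41 with limits apart. ATG9A was level at 22.9 and 23.7. Against genes of the same length, ATG2A differed by 0.09, ATG2B by 0.05 and ATG9A by -0.04, all with overlapping limits.

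**Figure D2:**
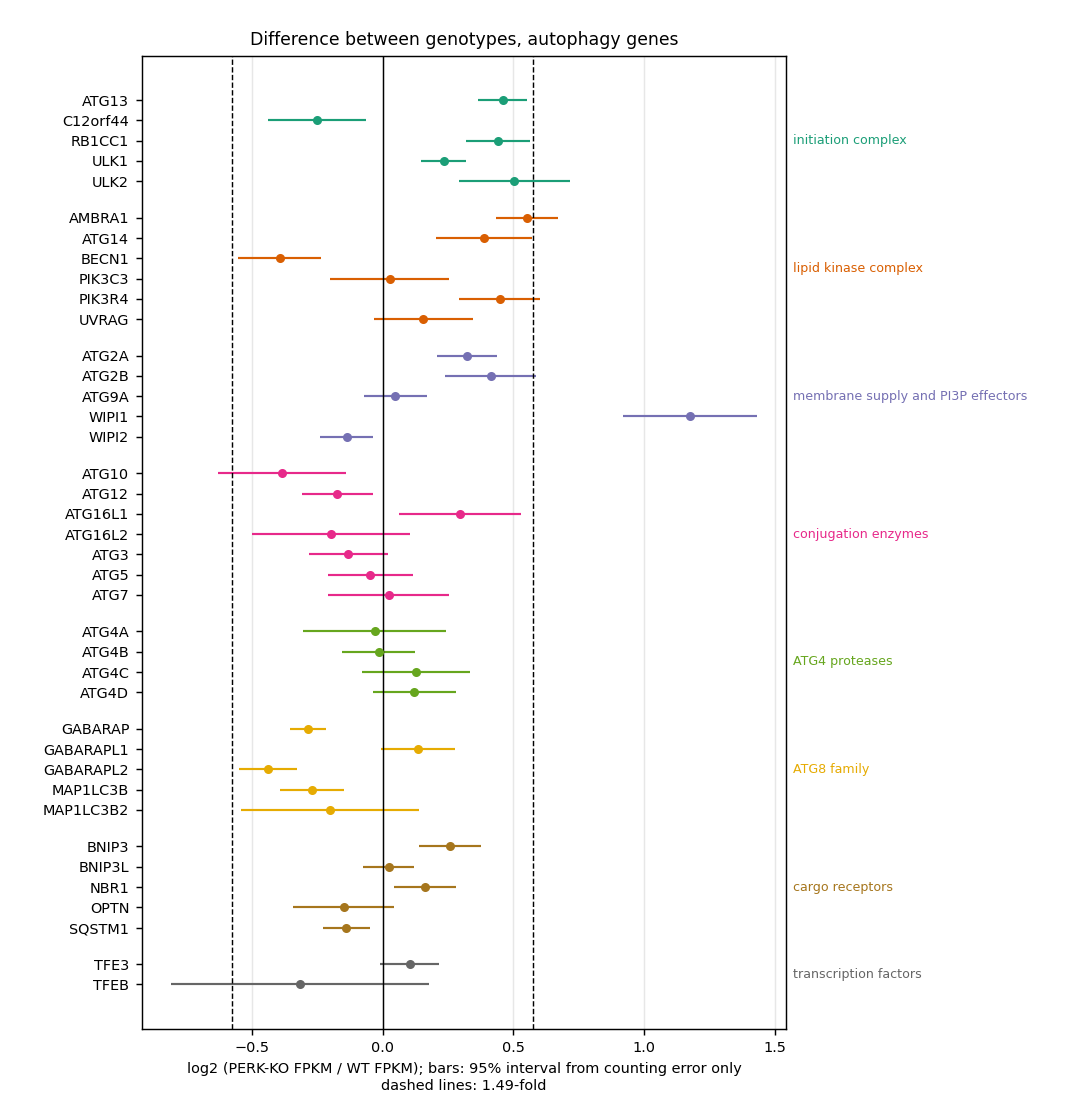
Log2 ratio of PERK-KO over WT FPKM for the 39 autophagy genes, coloured by role. Bars give the 95% interval from the deposited limits only, and dashed lines the threshold of the study (0.58). WIPI1 at 1.18 is the only point beyond a dashed line, AMBRA1 at 0.55 lies just inside, and GABARAPL2 at -0.44 is the lowest.

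The conjugation enzymes sat slightly below 0, with a median log2 difference of -0.13 and 5 of 7 genes lower. Of these, ATG10, the conjugating enzyme that couples ATG12 to ATG5, had limits apart. It was at 8.53 (7.59 to 9.47) and 6.54 (5.67 to 7.41), a log2 difference of -0.38 (-0.63 to -0.14). ATG12, the ubiquitin-like protein that ATG10 handles, was at 13.8 and 12.2, and its acceptor ATG5 at 11.01 and 10.7, both with overlapping limits, and ATG12 was lower with limits apart against genes of the same length (-0.33) or after rescaling to an equal median. ATG7, the activating enzyme at the head of the chain, was level at 3.79 and 3.85. ATG16L1, which anchors the ATG12-ATG5 conjugate to the membrane, was at 5.02 and 6.17, while its paralog ATG16L2 was at 5.17 and 4.51. Their limits overlapped as well. ATG3, the conjugating enzyme for the ATG8 proteins, was the most abundant of the chain at 38.5 and 35.2, again with overlapping limits.

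The 4 ATG4 proteases, which trim the ATG8 proteins before conjugation and release them afterwards, were the most even group. ATG4A was at 6.10 and 5.97, and ATG4B, the broadly acting member, at 24.1 and 23.9. ATG4C was at 8.93 and 9.75 and ATG4D at 26.0 and 28.2. Their log2 differences ran from -0.03 to 0.13, and all 4 had overlapping limits. ATG4D overlaps KRI1 and MIR1238 in the tables.

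The ATG8 family, the small proteins coupled to the autophagosomal membrane, was lower in PERK-KO cells in the 3 members most abundant in WT cells. GABARAP was at 283.5 (274.4 to 292.6) and 232.6 (223.8 to 241.3), a log2 difference of -0.29 (-0.36 to -0.22). GABARAPL2 was at 103.8 (98.8 to 108.9) and 76.6 (71.96 to 81.3), a log2 difference of -0.44 (-0.55 to -0.33) and the largest negative difference among the autophagy genes. MAP1LC3B, the LC3 form most often followed as an autophagosome marker, was at 29.97 (28.3 to 31.7) and 24.9 (23.2 to 26.5), a log2 difference of -0.27 (-0.39 to -0.15). In each of the 3 the limits stood apart, and the WT level was 1.22-fold, 1.36-fold and 1.21-fold that of PERK-KO cells, all within the threshold.

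GABARAPL1 was at 24.4 (22.7 to 26.2) and 26.8 (24.9 to 28.7), with overlapping limits and a log2 difference of 0.13 (-0.01 to 0.28). MAP1LC3B2 was at 12.7 (10.7 to 14.7) and 11.04 (9.05 to 13.04), likewise overlapping, a log2 difference of -0.20 (-0.54 to 0.14). Its value is uncertain, because 49.8% of the 50-base runs of its transcript also occur in MAP1LC3B, so the counting could have split reads between these genes. MAP1LC3A was at 0.204 and 0.0776, with a lower limit of 0 in both samples and about 1.83 and 0.44 fragments, so that no difference was detectable at this depth. Summed over the 6 genes, FPKM was 455 in WT and 372 in PERK-KO cells. GABARAP made up 62.4% and 62.5% of these sums, so the total was lower while the share of its main member was the same to within 1 percentage point.

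These 3 abundant members also have short transcripts, and short transcripts as a whole were lower in PERK-KO cells. Against genes of the same length, GABARAP differed by -0.08 and GABARAPL2 by -0.13 on the log2 scale, and their limits then overlapped. MAP1LC3B differed by -0.23 and kept its limits apart, and GABARAPL1 differed by 0.22 and gained limits apart. The part of transcript length in these differences was not tested.

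Cargo receptors connect what is to be degraded with the ATG8 proteins, and their 5 genes had a median log2 difference of 0.02. SQSTM1, the ubiquitin-binding receptor p62, was at 82.0 (78.4 to 85.7) and 74.5 (71.0 to 78.0), a log2 difference of -0.14 (-0.23 to -0.05) with limits just apart. The span of SQSTM1 overlaps those of C5orf45 and MGAT4B. NBR1, a receptor of similar build, was at 22.1 (20.8 to 23.4) and 24.7 (23.3 to 26.2), a log2 difference of 0.16 (0.04 to 0.28). OPTN, a receptor for mitochondria and bacteria, was at 8.82 (8.003 to 9.64) and 7.95 (7.15 to 8.76), a log2 difference of -0.15 (-0.34 to 0.05). The limits of NBR1 and OPTN overlapped. The related mitochondrial receptors BNIP3 and BNIP3L are both known targets of hypoxia signalling. BNIP3 was at 41.0 (38.5 to 43.5) and 49.0 (46.1 to 51.9), a log2 difference of 0.26 (0.14 to 0.38) with limits apart. BNIP3L was at 26.3 (25.1 to 27.6) and 26.8 (25.4 to 28.1), a log2 difference of 0.02 (-0.07 to 0.12). The counting intervals of these related genes did not overlap, and against genes of its length BNIP3 differed by 0.41.

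TFEB and TFE3 are basic helix-loop-helix factors that enter the nucleus when the nutrient-sensing kinase mTORC1 is off and switch on lysosomal and autophagy genes. TFEB was at 2.31 (1.79 to 2.82) and 1.85 (1.36 to 2.35), a log2 difference of -0.32 (-0.81 to 0.18). The interval is wide, and the fragment numbers derived from these same limits, 79.4 and 56.0, were the fewest of the 39 genes. TFE3 was far more abundant than TFEB, at 20.6 (19.4 to 21.7) and 22.1 (20.8 to 23.4), a log2 difference of 0.10 (-0.01 to 0.21). Neither factor differed beyond its limits. Of 4 autophagy genes known to respond to TFEB, WIPI1 was higher, MAP1LC3B and SQSTM1 were lower with limits apart, and UVRAG had overlapping limits, so the list showed no common direction (median log2 difference 0.01).

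The promoters of the autophagy genes were searched for letters that such factors recognise, on both strands of the 250 bases before to 50 bases after the start (RefSeq, GRCh38.p14). Of the 40 genes, 35 had a sequence, with 44 promoters in all. The TFEB motif TCACGTG was present in ATG3 and ATG14, 4.55% of the promoters of autophagy genes, and in 3.71% of 35116 promoters of all genes. The motif ACGTG, the core that HIF binds and which is contained in TCACGTG, was present in 25% against 21.4%. The GABPA motif CCGGAAG was present in 10 of the 35 genes, in 22.7% of their promoters against 10.3% of all. The background, here and for motifs elsewhere, was the promoters of all genes, whether or not the gene was expressed in these cells. Nearly all autophagy genes were expressed, so the groups are not alike. Promoters of expressed genes were not counted separately. Whether the share with the GABPA motif differs from that of other expressed genes was thus not tested. No set test was made. Capitals below mark the TFEB motif in ATG3, its reverse complement in ATG14 and the GABPA motif in GABARAPL2. The 30 bases of ATG3 (chr3:112561963-112561992, minus strand) and ATG14 (chr14:55411831-55411860, minus strand) directly before the start are shown as the only ones of the 35 genes with the TFEB motif. The 60 bases of GABARAPL2 (chr16:75566309-75566368, plus strand) are shown as the gene with the largest negative difference, which held the GABPA motif 2 times.

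ATG3: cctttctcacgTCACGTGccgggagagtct
ATG14: acaaaatccCACGTGActggctctcctctc
GABARAPL2: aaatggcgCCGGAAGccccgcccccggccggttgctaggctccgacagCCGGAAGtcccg

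The genes with the TFEB motif did not share a direction, with ATG14 at a log2 difference of 0.39 and ATG3 at -0.13. Of the 10 genes with the GABPA motif, GABARAPL2, BECN1 and SQSTM1 were lower with limits apart and the other 7 had overlapping limits. Of all genes tested, 18.7% were lower with limits apart (23.9% of those at an FPKM of 5 or more in either sample). Against genes of the same length, the limits of GABARAPL2 overlapped as well. The 10 genes ran from GABARAPL2 at -0.44 to ATG16L1 at 0.30. No match in a window says only that these letters are not in it.

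The 12 autophagy genes known to depend on ATF4 or CHOP under stress were mostly lower in PERK-KO cells. Of these, 9 were below 0 and 3 above, while of all genes tested 6700 were below 0 and 7739 above. With limits apart, 6 were lower and none higher, where all genes tested had shares of 18.7% and 26.1%. Among genes at an FPKM of 5 or more in either sample, these shares were 23.9% and 30.1%. The 6 lower genes were GABARAPL2, BECN1, ATG10, GABARAP, MAP1LC3B and SQSTM1, which are also the only autophagy genes lower with limits apart. The median of the list was -0.16, compared with 0.04 over all genes, and none of the 12 passed the threshold. Set against genes of the same length, the median was -0.13 against 0 over all genes. In that comparison 10 of 12 were below 0, while of all genes 6665 were below 0 and 6707 above. Of the 6 genes, GABARAP and GABARAPL2 then had overlapping limits and ATG12 was added, which left 5 of 12 lower with limits apart. The differences are small, the list was chosen with earlier results known, and nothing here separates it from other lists of the same size.

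The mRNAs of the factors themselves were not lower. ATF4 was at 342 (326 to 358) and 506 (483 to 528), a log2 difference of 0.56 (0.47 to 0.66), which at 1.48-fold lay just inside the threshold. ATF4 differed by 0.75 against genes of the same length and then passed it. DDIT3, the gene of CHOP, was at 58.2 (53.7 to 62.8) and 66.2 (61.1 to 71.4) with overlapping limits, a log2 difference of 0.19 (0.03 to 0.34). ATF4 is known to be controlled mainly at translation, which these data do not measure. The composite motif TGATGNAA that ATF4 and C/EBP factors recognise was present in none of the 44 promoters of the autophagy genes and in 3.62% of all promoters.

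Transcript length moved with the differences across the autophagy genes as it did across all genes. Spearman's rho between length and log2 difference was 0.57 over the 39 autophagy genes and 0.45 over 13401 genes with a length, a description across genes that share the same libraries. Of 14 autophagy genes shorter than 2500 bases, 10 were lower and 4 higher in PERK-KO cells. Their median was -0.20, while all genes of that length had a median of -0.17. Of 25 longer autophagy genes, 18 were higher and 7 lower, with a median of 0.13, while all longer genes had a median of 0.16. The 11 genes higher with limits apart had a median length of 5249 bases and the 6 lower ones of 2128 bases. The genes from initiation to membrane supply have mostly long transcripts, except C12orf44 (1433 bases), WIPI1 (1908) and BECN1 (2109). The ATG8 family has short ones, so role and length cannot be fully told apart.

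Against genes of the same length, ATG13 (0.35), RB1CC1 (0.19), AMBRA1 (0.37), PIK3R4 (0.26), WIPI1 (1.25) and BNIP3 (0.41) were still higher with limits apart. BECN1 (-0.33), ATG10 (-0.44), MAP1LC3B (-0.23) and SQSTM1 (-0.14) were still lower. ULK1, ULK2, ATG14, ATG2A and ATG2B came down to differences of 0.05 to 0.21 with overlapping limits, whereas WIPI2 (-0.30) and ATG12 (-0.33) became lower with limits apart. WIPI1, at 1908 bases, is a short transcript that was higher, so its difference went against the trend. What sets the trend was not tested.

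Other genes of the pathway, 65 in 7 lists, set the frame for the autophagy genes. In this set 63 reached an FPKM of 1 in either sample, with a median log2 difference of 0.11 (0.01 against genes of the same length). By more than the threshold, 5 were higher and 3 lower, where all genes tested had shares of 10.5% and 7.83%. The nutrient-sensing list upstream of ULK1 held 3 of the 5. MTOR, the kinase that keeps ULK1 off, was at 7.44 and 13.7, a log2 difference of 0.88. RPTOR, the scaffold that brings substrates such as ULK1 to MTOR, was at 7.62 and 11.8, a log2 difference of 0.63. SESN2, a stress-induced leucine sensor that restrains mTORC1 and a known ATF4 target, was at 18.2 and 30.5, a log2 difference of 0.75. Of these, SESN2 (0.67) still passed the threshold against genes of the same length, whereas MTOR (0.56) and RPTOR (0.41) did not.

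Downstream of the ATG8 proteins, VAMP8, a fusion protein of the lysosomal membrane with a short transcript of 679 bases, was at 39.7 and 20.2, a log2 difference of -0.97. VPS11, a core subunit of the tethering complexes that act before fusion, was at 8.23 and 12.7, a log2 difference of 0.62. The other 11 fusion genes stayed within the threshold. Receptors for organelles went both ways as well. ATL3, a receptor for tubular endoplasmic reticulum, was at 3.93 and 7.96, a log2 difference of 1.02, while FAM134B, a receptor for its sheets, was at 11.2 and 6.42, a log2 difference of -0.81. FUNDC1, a mitochondrial receptor, was at 49.2 and 32.8, a log2 difference of -0.59 that just passed the threshold. HIF1A, a factor known to raise BNIP3, was at 9.63 and 14.3, a log2 difference of 0.57 just inside the threshold. Against genes of the same length HIF1A differed by 0.45. A link to BNIP3 was not tested, and BNIP3L, also a known target of hypoxia signalling, differed by 0.02. With the length trend subtracted, ATL3 (0.76) and FAM134B (-0.87) still passed the threshold, whereas VAMP8 (-0.55), VPS11 (0.57) and FUNDC1 (-0.29) did not. Over these lists 44 genes were above 0 and 19 below, while of all genes tested 7739 were above 0 and 6700 below. With limits apart, 18 were higher and 8 lower, where all genes tested had shares of 26.1% and 18.7%. Against genes of the same length, 31 were above 0 and 30 below.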

How the data were processed

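RNA of 1 WT and 1 PERK-KO sample was measured, with genotypes from the labels. The authors purified polyadenylated mRNA, mapped the reads to GRCh37/hg19 (TopHat2 2.0.13 per the labels) and deposited FPKM with lower and upper confidence limits per gene, computed with Cufflinks 2.2.1. Read counts and depth were not in the files used here, so no count model was used. Fragment numbers were derived from the width of the limits, taken as 2 SD on each side and as counting error alone. All intervals, called counting intervals, come from these limits and hold no variation between cultures.

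Differences were log2 ratios of PERK-KO over WT FPKM without a pseudocount, over genes that reached an FPKM of 1 in either sample. The threshold was the 1.49-fold of the study. With 1 sample per genotype no test was possible, so counts and medians of the genes are given beside those of all genes tested. Transcript lengths were those of the canonical transcripts of GENCODE 44 on GRCh37. Genes were named by a rule, which gives every autophagy gene by FPKM in both samples, with full values for genes past 1.49-fold, the ATG8 family, the cargo receptors, the 3 largest differences each way, TFEB and TFE3, and of the other lists the genes past 1.49-fold with ATF4 and DDIT3. HIF1A and the GC box were added after the values were seen. The members and lists were chosen with earlier results of these data known. Python 3.11.15, numpy 2.4.6, pandas 2.3.3, scipy 1.17.1 and matplotlib 3.10.9 were used, and the scripts were tested on simulated data. The alternatives tried were other filters, pseudocounts (0.1 or 1), scaling to an equal median or an equal 75th percentile, subtraction of the length trend (running median of 401 genes), summed rows of the same name, a 2-fold threshold and a requirement that the confidence limits do not overlap.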

Additional observations from a re-analysis of the deposited data

How the results depend on the processing

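Over 207 combinations of a result with an alternative, 191 stayed within a tolerance, 16 moved and 0 values past the threshold changed sign, and 13 of the 16 moved when the running median over transcript length was subtracted. The tolerance was 1.5 times for a count, the 95% counting interval for a gene and the median standard error of the genes for their median, so it is wide: ATG14 lay within it at 0.21 in place of 0.39, where its limits overlapped. Without the filter on low values, 1 autophagy gene in place of 0 was lower by more than the threshold, which was MAP1LC3A with under 2 fragments in each sample. With the length trend subtracted, 7 in place of 11 autophagy genes had higher confidence limits that did not overlap. In the companion lists, 8 genes past the threshold became 5 with a pseudocount of 1 (without FUNDC1, RPTOR and VPS11) and 1 past 2-fold (ATL3). With the length trend subtracted there were 5, of which 3 were among the 8 (ATL3, FAM134B and SESN2) and 2 were not (ATF4 and GABARAPL3). WIPI1 stayed between 1.04 (pseudocount of 1) and 1.25 (length trend subtracted) on the log2 scale, and the median over the autophagy genes between -0.016 and 0.026, on either side of 0. With the length trend subtracted, 9 of the 39 autophagy genes changed sign, none of them among the 17 with limits apart. Rescaled to an equal median, 11 autophagy genes were higher and 9 in place of 6 lower with limits apart. The alternatives for the companion lists and for the confidence limits were added after the data were seen. No paired analysis was possible because each genotype has 1 sample, and for the same reason no replicate could be left out. Differences between cultures or between clones of the line were not measured, and a difference smaller than the counting interval of a gene was not detectable at this depth.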
